A study of Rattus norvegicus with 20 samples.

Results

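The housing effect pooled over both sexes was examined in the adBNST, the anterodorsal part of the bed nucleus of the stria terminalis, of all 20 rats whose small RNA was sequenced, 10 socially isolated (SI) and 10 group housed (GH). Every rat was used, and 1 effect of housing was fitted with sex as a covariate and no interaction term. The rats were Sprague-Dawley males and females, with 5 rats of each sex in either housing group. They were weaned at 21 days, then lived for 6 weeks either alone (SI) or 3 to a cage with littermates of their own sex (GH), and were 9 weeks old at the end. All rats, controls included, had been tested in the elevated plus maze, a test of anxiety-like behavior, shortly before the brain was taken, and the female samples were those with the highest RNA integrity that also spanned a range of estradiol levels. Bilateral punches of the adBNST gave 215 ng of RNA per library, amplified with 22 cycles of PCR. The sources used here do not give the cage of each GH rat, so p-values describe the spread between these rats and not between cages.

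The adBNST is part of the extended amygdala and takes part in responses to stress and threat. A microRNA (miRNA) is a short RNA cut from one or the other arm of a hairpin precursor (named -5p and -3p), which guides a silencing complex to mRNAs that pair with its seed, the bases after the first at its 5′ end. miRNAs that share a seed form a family with overlapping targets, and many miRNAs are made from clusters of neighbouring hairpins on one transcript.

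Of the 617 miRNAs with reads, 5 names had the same counts as another name and were merged with it, and 495 that reached 10 counts in 5 or more libraries were tested. In SI compared to GH rats, 85 miRNAs passed an adjusted p of 0.05, which is 17.2% of those tested. Of these, 36 were higher (7.27%) and 49 were lower (9.90%). An unadjusted p under 0.05 was reached by 153 miRNAs (30.9%). The sequences of the 10 miRNAs with the lowest adjusted p in each direction are shown because the pattern turns on them, with the seed (bases 2 to 8) in capitals. They are the RefSeq mature sequences of the GRCr8 build, except miR-486, miR-328a-3p and miR-320-3p, which are the reference form in the deposited reads. The 10 miRNAs higher in SI rats were:
miR-338-5p: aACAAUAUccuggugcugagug
miR-486: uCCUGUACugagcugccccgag
miR-25-3p: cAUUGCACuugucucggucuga
miR-328a-3p: cUGGCCCUcucugcccuuccgu
miR-6331: cUUUGGUGgcuuaguucuuugugc
miR-135a-3p: uGUAGGGAuggaagccaugaaa
miR-320-3p: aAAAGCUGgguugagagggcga
let-7d-5p: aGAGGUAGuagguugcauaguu
miR-434-3p: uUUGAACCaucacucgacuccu
miR-346: uGUCUGCCugagugccugccucu

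The 10 miRNAs lower in SI rats were:
miR-22-3p: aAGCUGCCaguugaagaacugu
miR-341: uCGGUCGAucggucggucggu
miR-24-3p: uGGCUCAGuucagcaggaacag
miR-181c-5p: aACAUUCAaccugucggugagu
miR-30e-5p: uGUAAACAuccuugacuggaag
miR-135b-5p: uAUGGCUUuucauuccuauguga
miR-136-3p: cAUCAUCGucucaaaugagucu
miR-29a-3p: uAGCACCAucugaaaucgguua
miR-434-5p: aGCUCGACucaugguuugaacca
miR-153-3p: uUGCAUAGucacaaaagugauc

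No seed was shared between these 20 sequences, and miR-434 was the one hairpin with both arms among them, its 3p arm higher and its 5p arm lower.

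The libraries differed with housing in several ways before any single miRNA was considered. They held between 3428930 and 11383055 miRNA reads, with a median of 5207204 in GH and 7129702 in SI rats (exact permutation test within sex, two-sided, p = 0.050, adjusted p = 0.092 over 11 library values). Fewer different miRNAs were detected in SI libraries, 367 to 479 with a median of 450.5, than in GH libraries, 454 to 530 with a median of 492.5 (exact permutation, adjusted p = 0.0097), also when all libraries were thinned to the same depth. The 10 most counted miRNAs took 52.6% ± 2.96 (SD, n = 10) of the reads in SI rats, compared to 48.4% ± 2.64 (SD, n = 10) in GH rats (exact permutation, adjusted p = 0.011). Fewer SI reads had a changed 5′ end (5.18% against 5.97%, exact permutation, adjusted p = 0.048) or a changed 3′ end (41.9% against 43.6%, exact permutation, adjusted p = 0.047). For the SI rats numbered 17, labels and file names disagree on the sex, and the labels were followed. Exchanging them left the housing labels as they were and gave 84 called miRNAs, 83 of them among the 85. Without both, 47 were called, 45 of them among the 85, and all 85 kept their sign. No miRNA passed between females and males with edgeR, 12 had an unadjusted p under 0.05 (2.42%), and no other tool was run for this contrast.

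Lower in SI rats by the smallest p of all was miR-22-3p, a miRNA widely expressed in the brain, encoded on chr10:60805387-60805408 (GRCr8, plus strand). Its log2 normalized count ranged from 12.98 to 14.42 with a median of 13.65 in GH rats and from 11.05 to 13.14 with a median of 12.17 in SI rats. Of the 10 SI rats, 9 lay below every GH rat, and the SI female I10F was the exception. The log2 fold change was -1.52 (SE 0.19, adjusted p = 2.0e-05), with -1.49 in males and -1.56 in females. Within each sex the 5 SI and the 5 GH rats did not overlap, which held for 69 of the 495 miRNAs in males (13.9%), for 10 in females (2.02%) and for 2 in both sexes (0.404%). These counts take either direction, and the other of the 2, miR-30b-5p, was higher in SI males and lower in SI females. No miRNA separated all 10 SI from all 10 GH rats (0 of 495, or 0%).

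The composition of the miR-22-3p reads also differed. The reference form made up 77.8% ± 3.49 (SD, n = 10) of its reads in GH rats and 64.3% ± 8.0 (SD, n = 10) in SI rats, a difference of -13.5 percentage points (exact permutation test within sex, two-sided, p = 6.3e-05, adjusted p = 0.0013 over the 20 miRNAs listed above). Forms shortened at the 3′ end rose from 13.7% to 24.6% (exact permutation, adjusted p = 0.00038 over 6 kinds of form). The most frequent of them lacks the last 2 bases and made up 10.4% ± 2.79 in GH and 19.8% ± 6.66 in SI rats. Extended, 5′-changed and mismatched forms, and forms with an added nucleotide, had adjusted p between 0.17 and 0.90. Among the other 19 miRNAs listed, the reference share passed in none, with miR-24-3p nearest to the threshold (45.3% in GH and 38.4% in SI rats, exact permutation, adjusted p = 0.055). No read of miR-6331 had the complete reference form in any library, so its count rests on shorter or altered forms. The reference form was also rare for miR-338-5p (2.0% of its reads in GH and 1.6% in SI rats) and for miR-30e-5p (2.1% and 1.5%).

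Each of the other lower miRNAs of the first 10 also had SI rats inside the GH range. miR-24-3p, which is encoded at more than 1 locus, had a log2 normalized count of 13.67 to 15.17 (median 14.02) in GH and of 11.32 to 13.72 (median 13.01) in SI rats. Its log2 fold change was -1.19 (SE 0.23, adjusted p = 0.0033), and 8 of 10 SI rats were below all GH rats. miR-30e-5p, of the miR-30 family, ranged from 13.94 to 14.78 (median 14.47) in GH and from 10.92 to 14.30 (median 13.30) in SI rats. It fell by 1.18 on the log2 scale (SE 0.24, adjusted p = 0.0035), and again I10F was the highest and I16F the lowest SI rat. miR-181c-5p fell by 1.59 (SE 0.32, adjusted p = 0.0033) and miR-135b-5p by 1.35 (SE 0.28, adjusted p = 0.0035). For both, 8 of 10 SI rats were below all GH rats. miR-153-3p, an miRNA of neurons that targets synaptic vesicle proteins, had values of 9.66 to 11.98 in GH and of 5.69 to 9.81 in SI rats and fell by 1.66 (SE 0.37, adjusted p = 0.0052).

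Among higher miRNAs, the changes were smaller and the levels greater. miR-338-5p, from the hairpin on chr10 that oligodendrocytes express, ranged from 12.41 to 13.37 (median 12.93) in GH rats and from 12.998 to 14.33 (median 14.01) in SI rats. Its log2 fold change was 0.89 (SE 0.17, adjusted p = 0.0033), with 8 of 10 SI rats above every GH rat. miR-486, abundant in red blood cells and muscle, ranged from 12.27 to 13.16 (median 12.83) in GH and from 13.11 to 14.63 (median 13.49) in SI rats. It rose by 0.92 (SE 0.18, adjusted p = 0.0033), and 9 of 10 SI rats were above every GH rat. miR-25-3p, of the miR-106b-25 cluster, rose by 0.66 (SE 0.14, adjusted p = 0.0042), from a median of 12.35 (12.17 to 12.69) to a median of 12.98 (12.48 to 13.58), also with 9 SI rats above every GH rat. The remaining 7 of the 10, from miR-328a-3p to miR-346, rose by 0.55 to 0.87. In the plot of values by rat, 8 or 9 of the 10 SI rats lay beyond every GH rat in each of the 8 miRNAs drawn, which were taken from the 20 listed. Over all calls, 8 or more SI rats lay beyond every GH rat in 9 of the 36 higher and in 22 of the 49 lower miRNAs. The calls rest on the same values, so these counts are descriptions, and the share over all miRNAs tested was not counted.

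**Figure D1:**
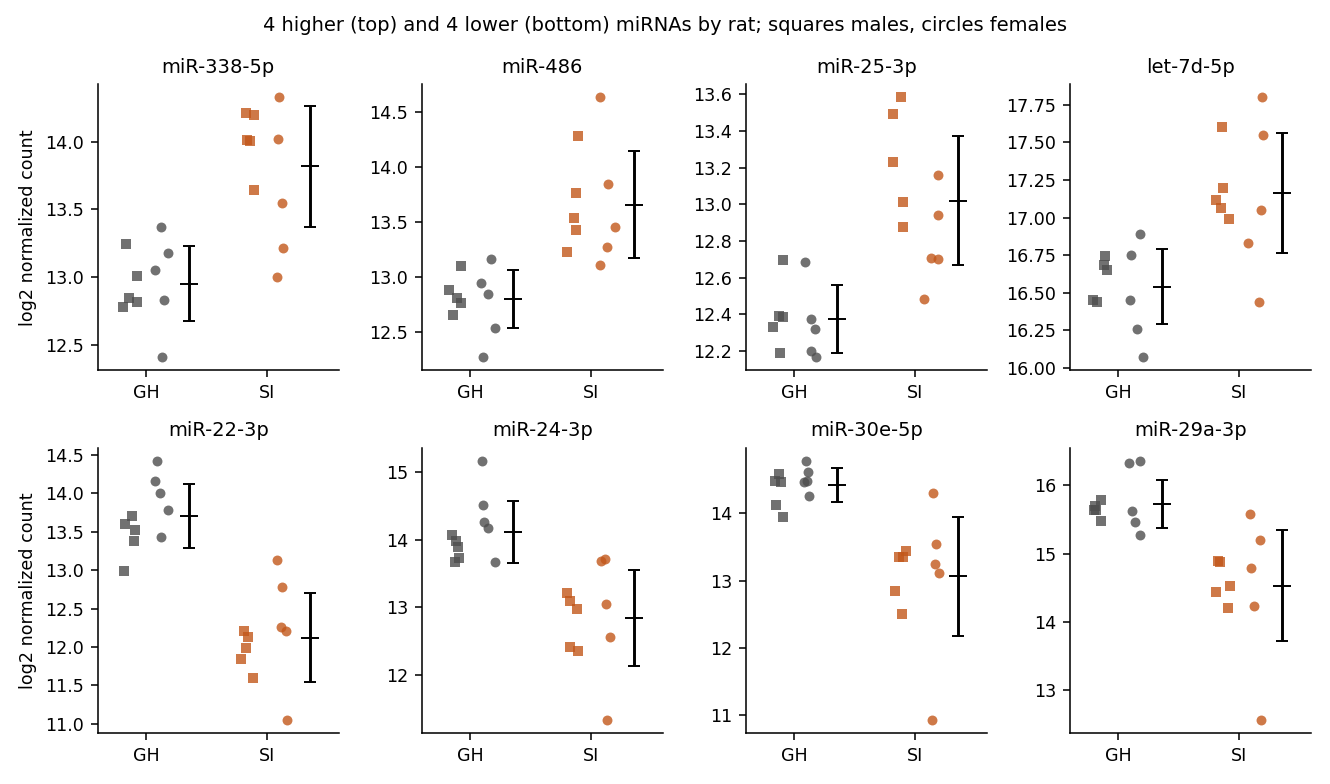
Log2 normalized counts of 4 miRNAs higher and 4 lower in SI rats, with 1 point per rat (squares males, circles females) and the mean ± SD of the 10 rats at the right of each group. miR-22-3p had 9 of 10 SI rats below every GH rat, and the lowest point for miR-22-3p, miR-24-3p, miR-30e-5p and miR-29a-3p was the SI female I16F.

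Over all 36 miRNAs called higher, the median log2 fold change was 0.66, with a range of 0.42 to 1.16. Over the 49 called lower, the median size was 0.99. The lowest fitted value belonged to miR-10b-5p, which had a median of 12.5 reads in GH rats (0 to 42) and 0 reads in 9 of 10 SI rats, so no fold is given for it. Leaving it aside, the lower miRNAs reached -1.83 (miR-377-3p, SE 0.64, adjusted p = 0.049). miR-377-3p was called in 5 of the 20 fits that left out 1 rat, and its value was -0.34 (adjusted p = 0.88) from reads without a mismatch and -0.71 (adjusted p = 0.78) with the number of miRNAs detected as a covariate. miRNAs called higher were more abundant, with a median log2 normalized count of 13.56, than those called lower, with 11.18, and all 495 had a median of 8.34. Of the 165 miRNAs with the lowest mean levels, 0 were called higher and 2 lower. Of the 165 with the highest, 28 were called in each direction. The median GC content of the mature sequence was 50.0% in those called higher, 45.5% in those called lower and 47.8% in all.

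**Figure D2:**
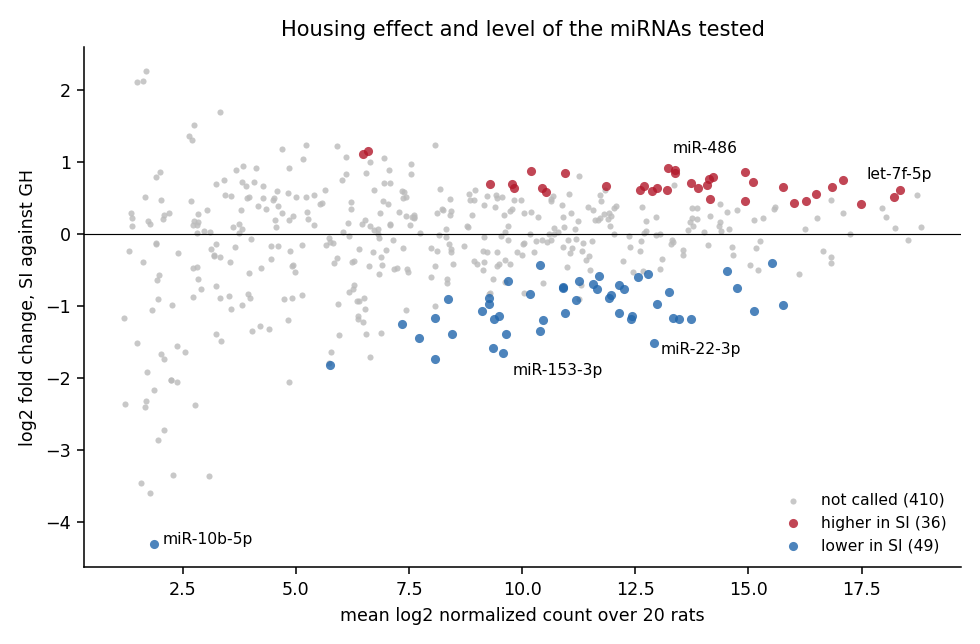
Log2 fold change of SI against GH (vertical) by the mean log2 normalized count over 20 rats (horizontal) for the 495 miRNAs tested, with the 36 called higher in red and the 49 called lower in blue. Calls in both directions gather at the higher levels, and miR-10b-5p, with 9 of 10 SI rats at 0 reads, stands alone at the lower left.

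Several families had all their calls in 1 direction. Over all miRNAs tested, 7.27% were called higher and 9.90% lower, the shares to set beside the count of each family. The let-7 family, including miR-98, keeps cells in a differentiated state and is among the most abundant miRNAs of the adult brain. All 9 of its guide strands carry the seed GAGGUAG, and all 9 had a positive log2 fold change (median 0.51, against -0.0038 over all miRNAs tested). Of the 9, 5 were called higher (55.6%). These were let-7d-5p (0.66, SE 0.15), miR-98-5p (0.65, SE 0.17), let-7f-5p (0.51, SE 0.13), let-7g-5p (0.42, SE 0.12) and let-7a-5p (0.60, SE 0.19), with adjusted p from 0.0065 to 0.030. let-7d-5p ranged from 16.07 to 16.89 in GH and from 16.44 to 17.80 in SI rats. Members of the family differ by few bases, and their reads could be assigned to one another. All 9 remained positive with DESeq2's size factors and with a correction for GC content, whereas with the number of miRNAs detected as a covariate, 6 were positive, 3 were negative and 1 was called. With depth as a covariate, the calls of the family were lost, let-7d-5p having an adjusted p of 0.062.

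Of the 4 tested miRNAs with the seed AUUGCAC, 3 were higher. Besides miR-25-3p, miR-92b-3p rose by 0.75 (SE 0.20, adjusted p = 0.012) and miR-92a-3p by 0.48 (SE 0.14, adjusted p = 0.023). miR-32-5p, the remaining carrier, had a log2 fold change of -3.35 and was not called with edgeR (adjusted p = 0.090). miR-92b-3p and miR-92a-3p lost their calls with depth as a covariate (adjusted p = 0.077 and 0.12) and with the number of miRNAs detected (0.87 and 0.64). Without both rats numbered 17, their adjusted p was 0.067 and 0.075. miR-92a-3p is cut from the miR-17-92 cluster, which promotes proliferation, and miR-92b-3p from a hairpin on another chromosome. The other 7 guide strands tested of the miR-17-92 and miR-106b-25 clusters were not called with edgeR, and limma called 1 of them lower. With miR-25-3p and both miR-92 strands, these 10 had a median log2 fold change of -0.10, with -2.41 to 0.75 as the range.

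The miR-29 family, which represses collagens and DNA methyltransferases and rises as the brain matures, was lower in all 3 members. miR-29a-3p had a log2 normalized count of 15.27 to 16.36 in GH and of 12.56 to 15.58 in SI rats, a fall of 1.07 (SE 0.24, adjusted p = 0.0051). miR-29b-3p fell by 1.20 (SE 0.40, adjusted p = 0.041) and miR-29c-3p by 1.39 (SE 0.47, adjusted p = 0.045). I16F was the lowest SI rat for each, and without it the median of the 3 was -1.05, with all 3 still called. With depth as a covariate 1 of the 3 was called. With the number of miRNAs detected, the median was -0.39 and the 3 calls were lost. miR-29b-3p was called in 10 and miR-29c-3p in 5 of the 20 fits that left out 1 rat, and without both rats numbered 17 their adjusted p was 0.12 and 0.10.

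In the miR-23, miR-24 and miR-27 clusters, all 5 guide strands had a negative log2 fold change and 3 were called lower. miR-27a-3p fell by 0.71 (SE 0.18, adjusted p = 0.011) and miR-27b-3p by 0.52 (SE 0.16, adjusted p = 0.028), beside miR-24-3p above. miR-23a-3p and miR-23b-3p, cut from the same transcripts, had values of -0.29 (SE 0.13, adjusted p = 0.12) and -0.15 (SE 0.11, adjusted p = 0.38). Both tested miR-135 guides were lower, miR-135b-5p as above and miR-135a-5p by 0.76 (SE 0.26, adjusted p = 0.043), which was called in 9 of the 20 fits that left out 1 rat. These miRNAs are known to repress the serotonin transporter. Of 4 miR-181 members, miR-181c-5p and miR-181a-5p (-0.40, SE 0.14, adjusted p = 0.043) were lower, the latter called in 8 of those 20 fits. Of 5 miR-30 members, edgeR called miR-30e-5p alone, with miR-30a-5p at -0.56 (SE 0.20, adjusted p = 0.056), whereas DESeq2 called 2 lower, miR-30a-5p included, and limma 2 lower and 1 higher. All 5 listed members of the miR-15/16 family, which restrain the cell cycle, had negative values and edgeR called 1, miR-16-5p (-0.85, SE 0.26, adjusted p = 0.029). miR-15a-5p was not in that list. With it, the 6 tested miRNAs of the seed AGCAGCA had values of -1.79 to -0.17, and miR-16-5p was still the only call with edgeR. miR-195-5p and miR-322-5p had values of -0.84 and -1.18 with adjusted p of 0.066 and 0.082. DESeq2 called 3 of the 5 listed members lower, these 2 included (adjusted p = 0.023 and 0.021), and limma 2. With depth or with the number of miRNAs detected as a covariate, 0 of the 5 were called. Of 5 strands of miR-99, miR-100 and miR-125, miR-99a-5p was lower (-0.75, SE 0.20, adjusted p = 0.011). None of 4 members of miR-34 and miR-449 was called with edgeR, where 1 had an unadjusted p under 0.05, and DESeq2 and limma each called 1 lower. miR-34c-5p had -0.90 (SE 0.33, adjusted p = 0.061).

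**Figure D3:**
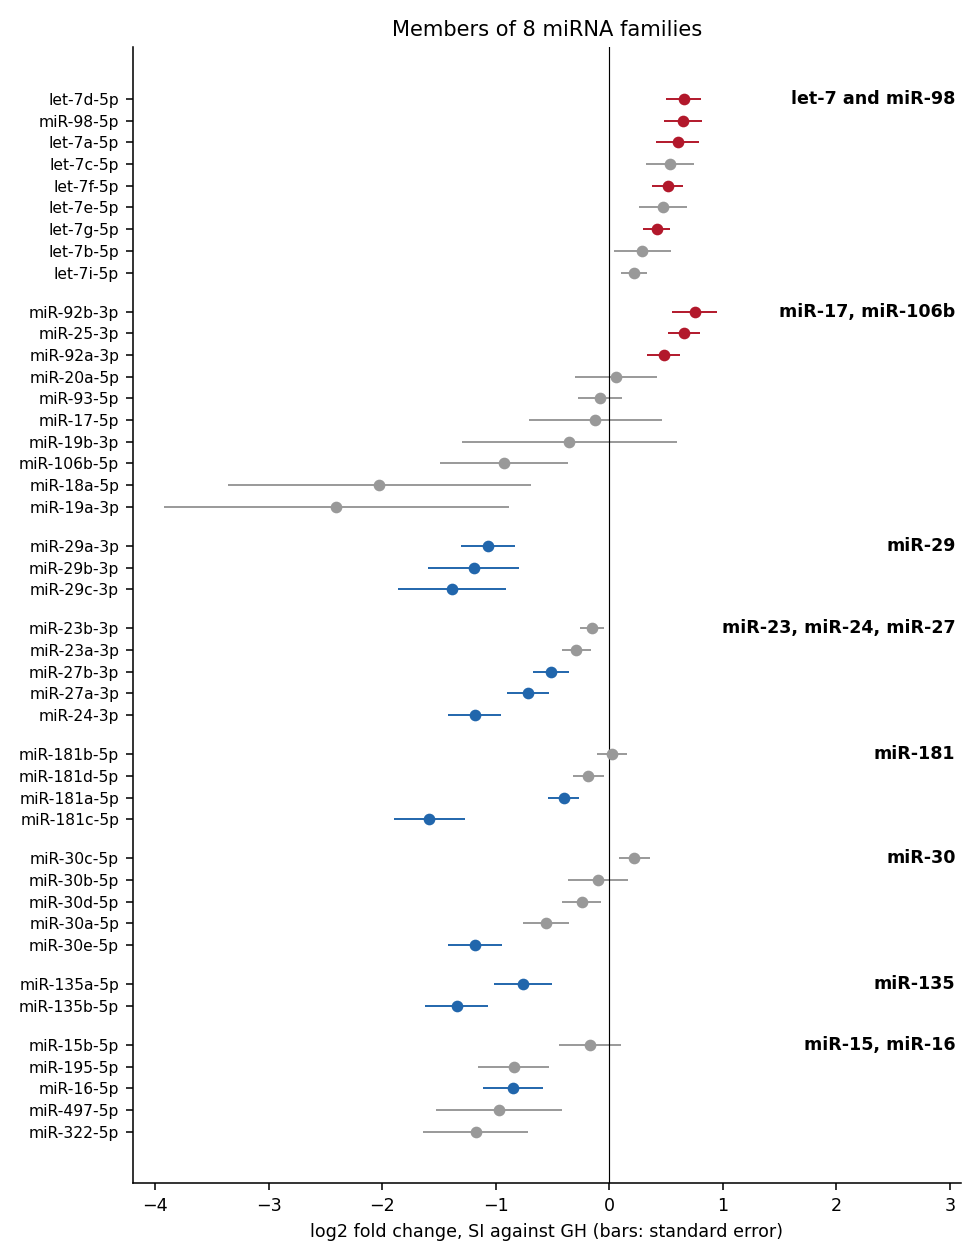
Log2 fold change of SI against GH with its standard error for each tested strand in the lists of 8 miRNA families. Strands called higher are in red, those called lower in blue and those not called in grey. miR-15a-5p is not in the list drawn. The 9 let-7 and miR-98 strands lie above 0, and the 3 miR-29 and the 5 miR-23/24/27 strands lie below it.

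The large imprinted region on chromosome 6, whose miRNAs are expressed from the maternal chromosome and are enriched in brain, gave calls in both directions. Of the lower miRNAs that could be placed on GRCr8, 16 of 44 were on chromosome 6 (36.4%), compared to 7 of 31 of the higher (22.6%) and 98 of 451 of all tested (21.7%). These counts take the whole chromosome, and miR-153-3p, at chr6:144306646, lies outside the clusters described next. miR-127-5p and miR-136-5p, both lower, could not be placed and are not in them. In the miR-379 to miR-410 cluster, listed by name, 58 miRNAs were tested and 4 were higher (6.90%, against 7.27% of all tested). Lower were 9 (15.5%, against 9.90%), and the median log2 fold change was -0.27. miR-6331 (0.85, SE 0.19, adjusted p = 0.0051), called higher, lies between miR-300-3p and miR-382-5p by its position and is not in these counts. miR-134-5p, which limits dendritic spine size, rose by 0.59 (SE 0.16, adjusted p = 0.012), and miR-485-3p, miR-329-5p and miR-382-5p rose by 0.79, 0.69 and 0.45. The falls with the smallest p there were miR-411-5p (-1.17, SE 0.28, adjusted p = 0.0067), miR-300-3p (-0.89, SE 0.22, adjusted p = 0.0083) and miR-376a-3p (-1.17, SE 0.30, adjusted p = 0.011). In the neighbouring miR-127 to miR-770 cluster, 2 of 22 were higher (9.09%) and 7 lower (31.8%), with a median of -0.15. miR-341 was lower (-1.19, SE 0.23, adjusted p = 0.0033), with 8 of 10 SI rats below every GH rat, and so were miR-136-3p (-1.18), miR-665 (-1.44) and miR-127-5p (-0.77). miR-770-3p was higher, by 0.61 (SE 0.17, adjusted p = 0.019). In the first cluster, 3 were higher and 10 lower without the SI female I16F, 0 higher and 7 lower without it and both rats numbered 17, and 1 higher and 2 lower with depth as a covariate. With the number of miRNAs detected as a covariate, the calls of this cluster were lost. The miR-127 to miR-770 cluster kept 2 higher and 7 lower without I16F, and 1 and 5 without it and both rats numbered 17. It had 0 higher and 3 lower with depth, and 0 and 2 with the number detected. miR-665 was called in 9 of the 20 fits that left out 1 rat. miR-770-3p had an adjusted p of 0.87 with the number detected and 0.067 without both rats numbered 17.

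The arms of a hairpin come from the same precursor and were compared for 157 hairpins with both arms tested. Their log2 fold changes had the same sign in 77. At least 1 arm was called in 52 hairpins, and both arms in 5. In miR-136 and miR-376b both arms were lower. In miR-338, miR-434 and miR-135a they moved in opposite directions. For miR-338, the 5p arm rose as described and the 3p arm fell by 1.74 (SE 0.50, adjusted p = 0.019), so that the log2 difference of 5p minus 3p was 3.70 ± 0.62 (SD, n = 10) in GH rats, compared to 6.93 ± 2.74 (SD, n = 10) in SI rats. The SI female I16F had 0 reads of miR-338-3p. For miR-434, the difference went from -4.54 ± 0.33 to -6.10 ± 0.83, and for miR-135a, whose 3p arm rose by 0.87 and 5p arm fell, from 2.91 ± 0.87 to 1.21 ± 1.03. These 3 were taken for their opposite calls, so the differences are descriptions with no test.

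miRNAs that mark cell types were examined next, since a punch holds several types. In bulk tissue, fewer cells of a type and less of an RNA per cell cannot be told apart. The 12 neuronal miRNAs were abundant in every rat, with a summed log2 level of 20.16 to 20.74 in GH and of 19.56 to 20.73 in SI rats. Of these, 2 were called (16.7%, close to the 17.2% of all tested), both lower, miR-153-3p and miR-212-3p (-0.44, SE 0.15, adjusted p = 0.047, called in 5 of the 20 fits that left out 1 rat), the latter an activity-regulated miRNA induced through CREB. miR-124-3p, the most neuron-specific of them, had -0.40 (SE 0.18, adjusted p = 0.12), and miR-128-3p had 0.23 (SE 0.16, adjusted p = 0.36). With the number of miRNAs detected as a covariate, 10 of the 12 were positive (median 0.18, against 0.089 over all miRNAs). There, 1 was called higher and 0 lower. The 4 oligodendrocyte miRNAs included both arms of miR-338, called in opposite directions, while miR-219a-5p had few reads (20 as the median in SI rats and 71.0 in GH rats) and an adjusted p of 0.10.

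Among vascular and immune miRNAs, the endothelial list had a call in each direction, and the mural and the immune list 1 lower call each. miR-143-3p, of smooth muscle and pericytes, fell by 0.99 (SE 0.23, adjusted p = 0.0062), the only one of 4 mural miRNAs called with edgeR. miR-126a-3p, of endothelium, fell by 1.11 (SE 0.28, adjusted p = 0.011), whereas miR-221-3p rose by 0.70 (SE 0.19, adjusted p = 0.014) and miR-222-3p, its cluster partner, had 0.41 (SE 0.16, adjusted p = 0.090). miR-21-5p, which is induced in activated glia, fell by 1.14 (SE 0.31, adjusted p = 0.012) and was the only one called with edgeR of 7 microglial and immune miRNAs. miR-155-5p of this list had 0.70 (SE 0.38, adjusted p = 0.23). With the number of miRNAs detected as a covariate, miR-21-5p (-0.27, adjusted p = 0.74), miR-126a-3p (-0.43, 0.50) and miR-143-3p (-0.55, 0.26) lost their calls. There, 6 of the 7 immune miRNAs were positive. miR-221-3p kept its call there (0.96, adjusted p = 0.028). It lost the call with depth (0.54, adjusted p = 0.12), as did miR-21-5p (-0.92, adjusted p = 0.12). Of 5 blood cell miRNAs edgeR called only miR-486, and miR-451-5p, the most specific to red cells, had 0 to 107 reads in GH and 0 to 181 reads in SI libraries. None of 4 miRNAs of choroid plexus and epithelium was called with edgeR, DESeq2 or limma, and 0 had an unadjusted p under 0.05 with edgeR. The summed level of the mural list was 15.89 to 16.95 in GH and 13.70 to 16.43 in SI rats, and that of the blood list 13.19 to 14.08 and 13.66 to 14.94. The part of cell composition in the other differences was not tested.

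All 85 called miRNAs had the same sign in males and in females. Housing was contrasted within each sex in the fit with the 4 groups, which holds the rats of both sexes. There, 25 of the 36 higher and 35 of the 49 lower miRNAs had an unadjusted p under 0.05 in males. In females, these counts were 27 and 35. The median log2 fold change of the 36 higher miRNAs was 0.67 in males and 0.68 in females, and of the 49 lower ones -1.04 and -0.94. The same sign in both sexes held for 330 of all 495. A pooled fit favors miRNAs that move alike in both sexes, so this agreement is a description. The interaction of housing and sex, fitted with the 4 groups, was called for 2 of 495 miRNAs (0.404%), and 33 (6.67%) reached an unadjusted p under 0.05, 2 of them among the 36 higher and 2 among the 49 lower. The 2 were miR-34a-5p and miR-30b-5p, and neither was called in the pooled fit, which averages values of opposite sign for both. Fitted alone, the 10 males gave 85 calls and the 10 females 0 with edgeR (66 at an unadjusted p under 0.05), and DESeq2 was not run on the females alone. That contrast of counts is no test of a difference between the sexes, which is the interaction.

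**Figure D4:**
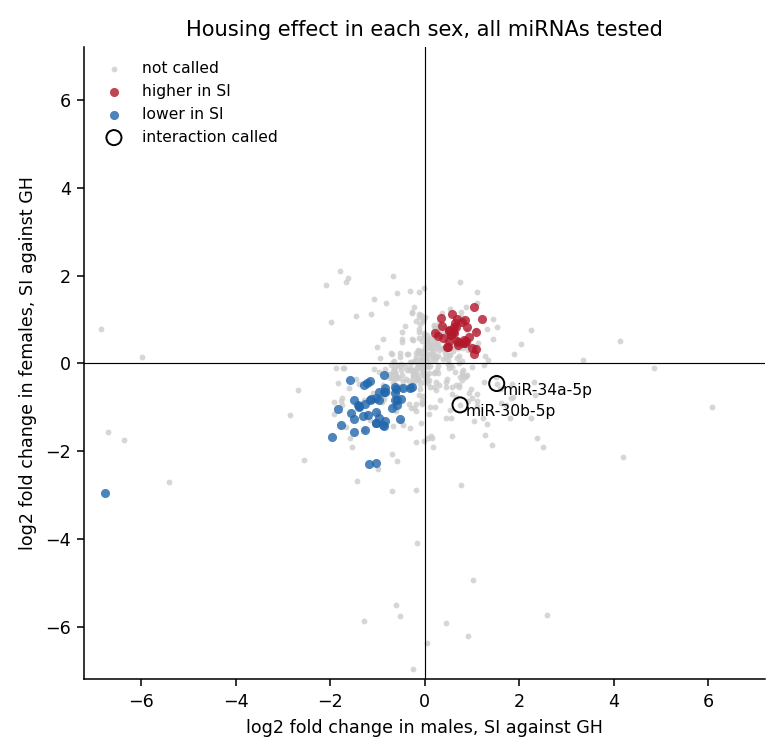
Log2 fold change of SI against GH in females (vertical) by that in males (horizontal) for the miRNAs tested, with those called in the pooled fit in color and those with a called interaction circled. The 85 called miRNAs lie in the quadrants of equal sign, and 1 miRNA outside the axes, which end at 7.2, is not drawn.

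The SI rats were not equally far from the GH rats. Averaged over the 36 higher miRNAs, the difference from the GH mean was 0.13 to 1.17 in the 10 SI rats and -0.46 to 0.30 in the 10 GH rats. Averaged over the 49 lower ones, it was -3.09 to -0.23 in SI and -0.29 to 0.45 in GH rats. I16F had the highest SI value for 22 of the 36 and the lowest for 37 of the 49. I10F, at the other end, had the lowest SI value for 22 of the 36 and the highest for 34 of the 49. I16F was also the library with the fewest miRNAs detected, 367, and I10F, with 475, was second only to I19M among SI rats. In the GH group, G16F had the lowest value for 20 of the 36 and the highest for 23 of the 49, and 528 miRNAs were detected in it. Without I16F, 80 miRNAs were called, 75 of them among the 85. Without I10F, 109 were called.

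**Figure D5:**
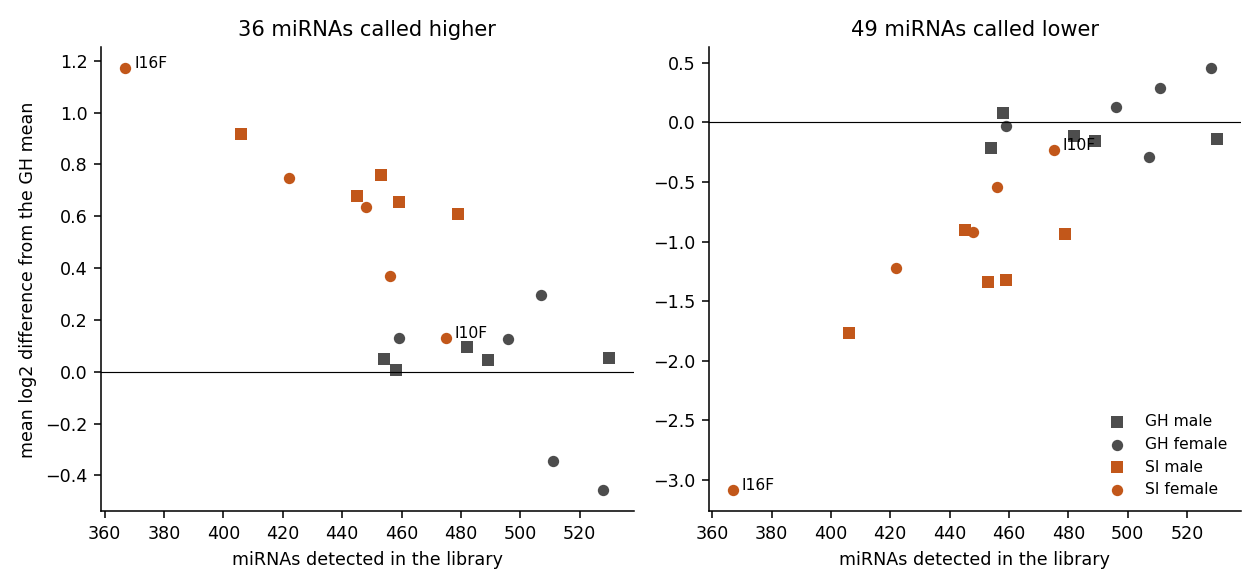
Mean log2 difference from the GH mean over the 36 miRNAs called higher (left) and the 49 called lower (right), by the number of miRNAs detected in each library, with 1 point per rat. The SI female I16F, with 367 miRNAs detected, lies farthest from the GH rats in both panels, and I10F lies among them or next to them.

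The number of miRNAs detected differed with housing and the depth was higher in SI rats without passing its test, and the fit was repeated with each as a covariate. With log2 of the miRNA reads, 25 miRNAs were called, all of them among the 85, and all 85 kept their sign. With the number of miRNAs detected, 15 were called, 10 of them among the 85, and 84 kept their sign. miR-22-3p was called in both, at -1.46 (adjusted p = 0.00035) and -1.26 (adjusted p = 0.0020), as were miR-338-5p at 0.88 and 0.90, miR-25-3p at 0.64 and 0.71, and miR-341 at -1.05 and -1.11. Of the 20 miRNAs listed, 17 were called with depth and these 4 with the number detected, while the other 16 lost their call there. The miR-29, miR-30, miR-135 and miR-181 families and the miR-23, miR-24 and miR-27 clusters had no call left with the number detected. miR-486 was called with depth (0.86) and not with the number detected, where it had 0.33 (adjusted p = 0.35). miR-29a-3p had -0.98 (adjusted p = 0.039) and -0.39 (adjusted p = 0.42). The number of miRNAs detected overlapped between the groups only from 454 to 479, and its part in the smaller changes was not tested beyond these fits.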

How the data were processed

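The files deposited by the authors hold, per library, raw read counts of each sequence that seqbuster matched to a rat hairpin of miRBase v21 after adapter trimming with cutadapt. No versions of these tools are given in the sources used here. Listed sequences had at least 2 reads. Counts were summed per miRNA, and a read matching several miRNAs counted for each. Without molecular identifiers, counting error leaves out amplification.

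miRNAs with at least 10 counts in at least 5 libraries were tested with edgeR 4.0.16 (R 4.3.3), by TMM and the quasi-likelihood F test with sex and housing as terms, and Benjamini-Hochberg adjusted over all 495 at a threshold of 0.05. The standard error is the log2 fold change over the square root of F. Log2 normalized counts are counts over the effective library size, scaled to the mean effective library size, plus 1. Single values were tested over all 63504 assignments of housing within sex, two-sided, the smallest p being 3.15e-05. Python 3.11.15, pandas 2.3.3 and numpy 2.4.6 were used. The scripts were tested on simulated data.

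No 2 of the 190 library pairs were copies (lowest chi-square per degree of freedom 79.6). Of 457 reference reads, 456 equalled the RefSeq sequence, and names were matched to GRCr8 for positions. The named miRNAs were the 10 with the lowest adjusted p in each direction and, in each of the 19 lists of families, clusters and cell types, up to 3 members with the lowest p and any other called. Members and lists were chosen with earlier results of these data known. miR-34a-5p, miR-30b-5p, miR-10b-5p, miR-128-3p and the miR-23 pair were named after their values were seen, as were the uncalled members that stand beside a called one. Alternatives were DESeq2 1.42.0, its size factors, limma 3.58.1 voom, sva 3.50.0, other filters, samples, covariates and read sets, and each rat left out. The permutation test of every miRNA, the number of miRNAs detected as a covariate, leaving out I16F and both rats numbered 17, and thinning were added after the data were seen.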

Additional observations from a re-analysis of the deposited data

Results flagged for a closer look

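Within the 10 rats of a group, a sample was marked when its gap to the next was over 0.466 of the range. Of 60 groups of values examined, 7 were marked, where chance marks about 1 in 20. The SI female I16F was marked as the lowest of the SI rats for miR-30e-5p (log2 normalized count 10.92), miR-136-3p (9.54), miR-29a-3p (12.56) and miR-153-3p (5.69). In GH rats, G16F was the lowest for miR-346 (12.18), and G15F was the highest for miR-434-5p (12.21). The SI male I15M had the most miRNA reads, 11383055.

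The housing effect differed between the sexes by the interaction test for miR-34a-5p, a target of p53 that responds to stress in the amygdala, by -1.98 on the log2 scale (females minus males, SE 0.43, adjusted p = 0.039). Its log2 fold change was 1.52 (SE 0.31) in males and -0.46 (SE 0.30) in females, and the pooled value was 0.53 (adjusted p = 0.26). The interaction of miR-30b-5p was -1.69 (SE 0.38, adjusted p = 0.039), from 0.75 (SE 0.27) in males and -0.95 (SE 0.27) in females, with a pooled value of -0.10 (adjusted p = 0.86). Its 5 SI and 5 GH rats did not overlap in either sex. With the 2 libraries numbered 17 exchanged, neither interaction was called.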

How the results depend on the processing

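The 85 calls became 47 without both rats numbered 17, 55 without these and I16F (16 higher and 39 lower), 25 with depth, 15 with the number of miRNAs detected and 49 with 1 surrogate variable. They became 0 in the 10 females alone (66 at an unadjusted p under 0.05). DESeq2 called 127 (33.2% of 382 with an adjusted p), the permutation test 119 (24.0%) and voom 100. The remaining alternatives gave 81 to 102, and leaving out each rat gave 60 to 109. Of the 85, 52 were called and all 85 kept their sign in each of these 20 fits. Without mismatched reads, 84 kept their sign. The 20 miRNAs whose sequences are shown were called whichever rat was left out, but 4 with the number of miRNAs detected and 0 in all other alternatives, females alone included. The median of all miRNAs was -0.13 with voom and -0.24 in the permutation test, against -0.0038. The cause of these moves was not tested.

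Within a sex, SI and GH rats share some animal numbers. The deviations of same-numbered rats correlated by -0.091 and -0.016 in males and 0.087, -0.30 and -0.082 in females. What a shared number stands for is not given in the sources used here, and these correlations cannot decide it. In these 10 rats, the fit with a replicate block called 0 (96 unadjusted) and that without the block 39. The 2 interactions became 0 to 2 with a rat left out, 0 with the rats numbered 17 exchanged and 6 with DESeq2. The difference in miRNAs detected (-50.4) was -55.6 to -42.1 with a rat left out, and that in GC content, 0.0083 percentage points, was -0.18 to 0.11.

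Among uncalled miRNAs, miR-34a-5p was -0.45 in females alone. miR-30b-5p was 0.73 in males alone, 0.017 without I16F and the rats numbered 17, 0.34 with the number detected, 0.12 with 1 surrogate variable, 0.17 with voom, 0.13 with GC correction and between -0.20 and 0.075 with a rat left out. miR-124-3p was 0.025 with the number detected. Low depth limits miRNAs near the filter.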

Other observations

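Outside the lists above, other called miRNAs were linked to known functions. miR-7b, which is abundant in the hypothalamus and in neuroendocrine cells, was higher by 0.43 (SE 0.11, adjusted p = 0.011). miR-378a-3p, encoded in a gene of mitochondrial regulation, was higher by 0.63 (SE 0.17, adjusted p = 0.012). miR-129-5p was higher by 0.46 (SE 0.16, adjusted p = 0.045), and miR-148b-3p by 0.76 (SE 0.24, adjusted p = 0.033). miR-132-5p, from the activity-regulated hairpin cluster that also encodes miR-212, was lower by 0.65 on the log2 scale (log2 fold change -0.65, SE 0.18, adjusted p = 0.014). miR-101a-3p had -0.81 (SE 0.26, adjusted p = 0.037) and miR-335 had -0.98 (SE 0.33, adjusted p = 0.043), both lower in SI rats. miR-330-5p (-0.59, SE 0.15) and miR-423-3p (-0.57, SE 0.15) were lower with narrower spreads, both with an adjusted p of 0.011. These miRNAs were chosen after their values were seen.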
